A study of Mus musculus with 14 samples.

Results

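Solute carriers are membrane proteins that move amino acids, sugars, ions, metals, nucleotides and vitamins across the plasma membrane, synaptic vesicles and the membranes of organelles. The genes described here were the rows of the deposited expression table whose symbol had the form Slc, a family number, a letter and a member number, that had a value in all 14 libraries, and whose log2 signal averaged at least 1 over them. The table held 45802 rows, of which 359 were solute carrier symbols. Of these, 15 had no value in any library, 86 had a value in some libraries only and 258 had a value in all of them. The mean of 1 then removed 82 genes and left 176. Just inside this limit were Slc35f3, with a mean log2 signal of 1.01, and Slc7a11, with 1.06. Just outside it were Slc5a3, with 0.876, and Slc16a3, with 0.849. Members were thus chosen by their mean level, so levels are given as a description. Slc2a1 and Slc44a5 were picked out with earlier results of these data known. With the bicuculline group left out of the mean, or the group that received APV, 0 of the 176 fell below 1. Without the DMSO group or the PK-cleaved group, Slc35f3 fell below it.

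The libraries came from primary cortical neuron cultures of wild-type C57BL/6 mice, treated at day 12 in vitro for 1 h. DMSO at 1% served as the control, with 2 libraries numbered replicates 2 and 3. The other 4 groups had 3 libraries each. Bicuculline, a blocker of GABA-A receptors that raises network firing, was given at 20 µM. NMP peptides, the peptides released by the neuronal membrane proteasome, were given at 4% by volume. The PK-cleaved group received NMP peptides digested with proteinase K, also at 4%, and the APV group received 4% NMP peptides together with 100 µM APV, an antagonist of NMDA receptors. A DMSO content is given for the control group alone, and APV was studied here only together with the peptides. The question was which solute carriers differ in RNA level after an hour with each agent.

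Neurons and glia use these genes for a division of labour. Vesicular carriers load glutamate and GABA into synaptic vesicles, and plasma membrane carriers of neurons and astrocytes take transmitter back up. Chloride and bicarbonate carriers set the ion gradients on which inhibition and pH depend, and glucose and monocarboxylate carriers supply fuel.

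The 176 genes spanned a wide range of levels, and all values below are on the deposited log2 scale, which is relative to gene length. The median gene had a mean log2 signal of 3.26, 28 genes lay at 5 or above and 73 below 3. The highest was Slc25a4, the ADP/ATP carrier of the inner mitochondrial membrane, with a mean log2 signal of 8.76. It was followed by the mitochondrial phosphate carrier Slc25a3 with 7.41 and the astrocytic glutamate transporter Slc1a3 with 7.31. The genes were sorted by family number into 7 functional classes. The 36 amino acid and neurotransmitter carriers had the highest class median, 4.25. The mixed class of 22 lipid, choline, vitamin, nucleoside, peptide and other carriers had the lowest, 2.72, and was led by the monoamine transporter Slc29a4. The other class leaders were Slc22a17 among sugar, monocarboxylate and organic ion carriers, the zinc transporter Slc39a7 among metal carriers, the potassium-chloride cotransporter Slc12a5 among ion exchangers and Slc35f1 among the nucleotide sugar family. The vesicular glutamate carrier Slc17a7, which marks excitatory neurons of the cortex, had a mean of 6.24.

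**Figure D1:**
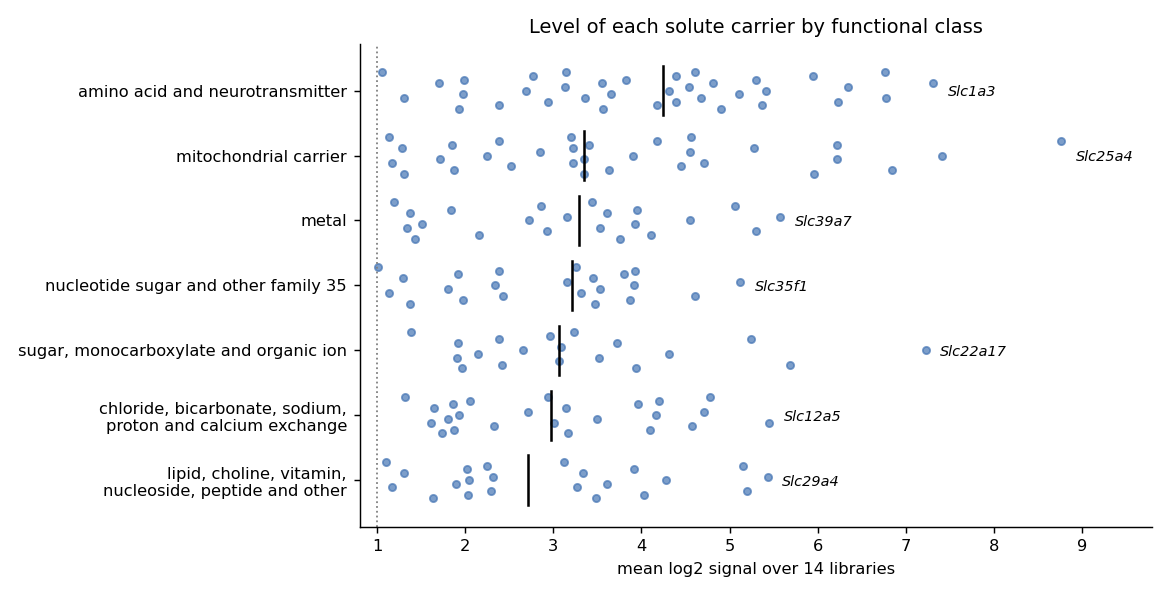
Each point is 1 of the 176 solute carriers, placed by its mean log2 signal over 14 libraries (horizontal axis) in its functional class (rows, with points spread vertically only for legibility); black bars are class medians, the dotted line is the limit of 1 and the highest gene of each class is named. Amino acid and neurotransmitter carriers had the highest median, 4.25, and the mitochondrial carrier Slc25a4 the highest level, 8.76.

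Most solute carriers had nearly the same level in all 5 groups. The range between the highest and lowest group mean had a median of 0.191 log2 units over the 176 genes, beside 0.189 over all 10877 genes tested. The SD between libraries of 1 group had a median of 0.119, and 169 of the 176 genes had a range of group means under 0.5. A moderated F test in limma, which asks for any difference among the 5 groups, called 4 of the 176 genes (2.27%) at an adjusted p under 0.05. Over all genes tested the share was 1.65%. The 4 genes were Slc44a5 (adjusted p = 2.76e-05), Slc2a1 (0.0185), Slc4a8 (0.0217) and Slc24a4 (0.0271), all by limma with Benjamini-Hochberg adjustment over all genes. Slc25a51 came next, with 0.0721, and Slc25a25 had 0.0973. Slc2a1 was high with bicuculline, and the other 3 called genes were high with NMP peptides plus APV. The number called rests on few libraries. It was 2 without bicuculline replicate 1 or 3 or without APV replicate 1 or 2, and 1, Slc44a5, without APV replicate 3. With the replicate number as a block it was 3, and Slc4a8 was the gene lost.

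A single solute carrier was called higher with bicuculline, Slc2a1, the glucose transporter that brings glucose into the brain and into glia. In the 2 DMSO libraries its log2 signal was 2.91 and 3.14, and in the 3 bicuculline libraries it was 3.71, 3.55 and 3.99. The groups did not overlap, and the bicuculline libraries also lay above all 9 libraries of the other treated groups. There the log2 signal of Slc2a1 was 3.20, 3.16 and 2.93 with NMP peptides, 3.00, 3.33 and 3.14 with PK-cleaved peptides, and 2.93, 3.15 and 3.07 with peptides plus APV. The difference from DMSO was 0.72 log2 units (SE 0.137, 95% interval 0.43 to 1.01, 1.65-fold, limma adjusted p = 0.0284). It was 1 of 176 solute carriers called higher and 0 were called lower, beside 0.469% of all genes called in this comparison, all of them higher. Groups that did not overlap were seen for 26 solute carriers (14.8%) and 17.8% of all genes. At an unadjusted p under 0.05 there were 5 solute carriers (2.84%), beside 3.14% of all genes. Against NMP peptides the difference was 0.65 (SE 0.122), with an adjusted p of 0.0537, which missed the threshold.

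The Slc2a1 call rests on few libraries. It was lost without DMSO replicate 2 (adjusted p = 0.449), DMSO replicate 3 (0.0882), bicuculline replicate 1 (0.0758), bicuculline replicate 3 (0.125) or APV replicate 3 (0.0514), while the difference stayed between 0.60 and 0.83 in these limma fits. The adjusted p was 0.231 with only the groups compared in the fit and 0.0629 with the replicate number as a block.

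The other fuel carriers gave smaller or more variable differences. Slc16a1, a transporter of lactate, pyruvate and ketone bodies, had log2 signals of 3.03 and 2.55 in DMSO and 3.35, 3.29 and 3.93 with bicuculline. Its bicuculline libraries lay above the other 11 libraries, with a gap of 0.11 to the nearest, and the difference of 0.73 (SE 0.181) did not pass the test (limma adjusted p = 0.194). Slc2a1 and Slc16a1 were the 2 solute carriers (1.14%) whose bicuculline libraries all lay above every other library, a pattern that 0.956% of all genes had.

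Slc2a3, the high-affinity glucose transporter of neurons, had log2 signals of 5.11 and 5.26 in DMSO and 5.30, 5.35 and 5.61 with bicuculline. The groups did not overlap by a narrow margin, and its difference was 0.23 (SE 0.091, limma adjusted p = 0.996). Slc25a25, a calcium-regulated carrier of ATP-Mg and phosphate in mitochondria, had 3.26 and 3.36 in DMSO and 3.56, 3.45 and 3.71 with bicuculline. Its difference was 0.26 (SE 0.085, limma adjusted p = 0.7). The plot of fuel carriers shows that bicuculline replicate 3 was the highest of its group for all 4 genes. Of 23 genes of glucose use (glycolytic enzymes, lactate dehydrogenases, pyruvate dehydrogenase kinases and Txnip), 0 were called between bicuculline and DMSO and 0 had an unadjusted p under 0.05. Their median difference was 0.07, with 16 above 0, beside a median of -0.03 over all genes. For bicuculline against NMP peptides 22 of the 23 were above 0, with a median of 0.145, beside 0.004 over all genes. There 0 were called and 2 had an unadjusted p under 0.05, beside 2.12% of all genes. For NMP peptides against DMSO 21 of the 23 were below 0, with a median of -0.069, beside -0.042.

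**Figure D2:**
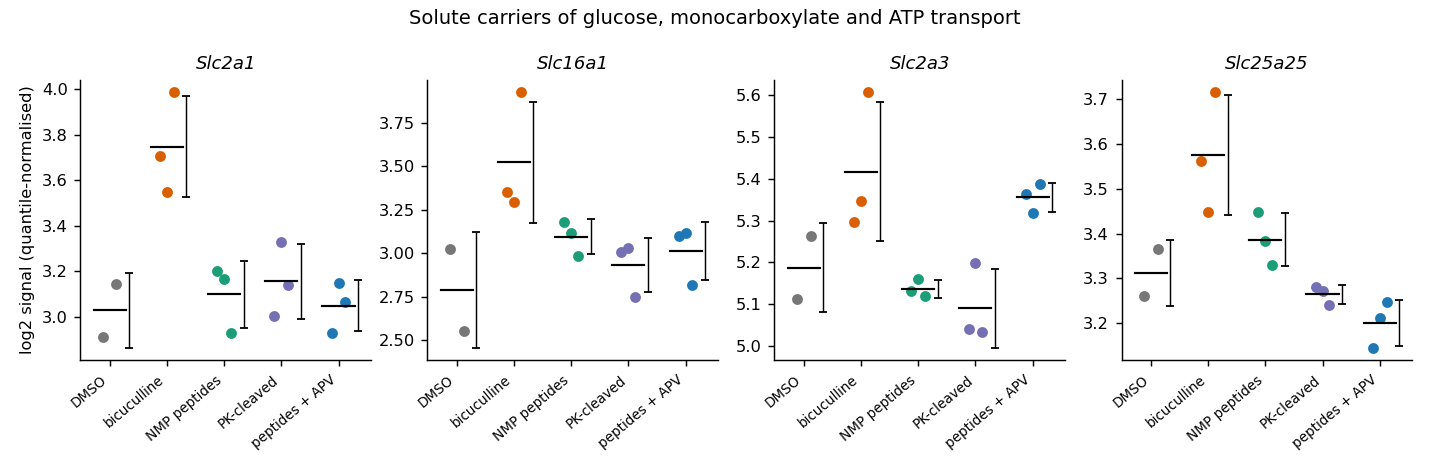
Log2 signal (vertical axis, a separate scale for each gene) of Slc2a1, Slc16a1, Slc2a3 and Slc25a25 in each library of the 5 groups (points); horizontal bars are group means and the error bars beside them 1 SD, with n = 2 for DMSO and n = 3 for the others. The 3 bicuculline libraries of Slc2a1 sit between 3.55 and 3.99, above the 11 other libraries, which end at 3.33.

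NMP peptides without APV gave no call among solute carriers. Against DMSO 0 of 176 were called and 1 had an unadjusted p under 0.05, beside 0.0184% and 2.02% of all genes. That gene was Slc31a1, the copper importer, with a difference of -0.21 (SE 0.08, limma adjusted p = 0.971). Slc30a10, a metal exporter, differed by -0.23. Libraries of the groups did not overlap for 27 solute carriers (15.3%), beside 17.4% of all genes in either direction. Of the 27, 26 were lower with the peptides, and the split by direction over all genes was not counted. A lean to this side was also seen outside this family. The DMSO libraries lay above every other library for 1.32% of all genes and below for 0.101%. The median difference of the 176 genes was -0.05, beside -0.04 over all genes, and the 95% interval of a single gene reached a median of 0.23 to either side. Differences of about this size or smaller could not be resolved with these numbers of libraries. The interval is not adjusted for the number of genes tested. Larger differences could thus also go uncalled, and the lack of calls does not exclude them.

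PK-cleaved peptides likewise called 0 of 176 against DMSO, where 0 of all genes were called (0%) and 5 solute carriers had an unadjusted p under 0.05 (2.84%, beside 1.05%). The groups did not overlap for 25 solute carriers (14.2%), beside 11% of all genes. The smallest p belonged to Slc35f4 (0.44, SE 0.125), the phosphate transporter Slc20a1 (-0.24, SE 0.1) and the magnesium transporter Slc41a3 (0.31, SE 0.133), each with a limma adjusted p of 1. Between intact and PK-cleaved peptides 0 of 176 were called, beside 0.0827% of all genes, and 8 had groups that did not overlap (4.55%, beside 5.21%). An unadjusted p under 0.05 was found for 2 (1.14%, beside 1.65%). These were Slc35f4 (-0.25, SE 0.112) and the heme transporter Slc48a1 (-0.14, SE 0.066), again with adjusted p of 1. Slc2a1 differed by -0.06 and Slc44a5 by -0.004 between the 2 peptide preparations. Bicuculline against NMP peptides called 0 of 176, beside 0.175% of all genes, and 12 had groups that did not overlap (6.82%, beside 4.7%). An unadjusted p under 0.05 was found for 4 (2.27%, beside 2.12%): Slc2a1, Slc2a3 (0.28), Slc16a1 (0.43) and Slc25a25 (0.19).

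Addition of APV to the peptides gave the largest group of calls. Against NMP peptides alone, 4 of 176 solute carriers were called, all of them higher with APV, and 0 were called lower with APV. Of all genes 1.43% were called, 0.552% higher with APV and 0.883% lower with it. At an unadjusted p under 0.05 there were 30 solute carriers (17%), beside 15.8% of all genes, and groups did not overlap for 37 (21%), beside 21.8%. The 4 genes carry different substrates. Slc44a5 belongs to the choline transporter-like family. Slc4a8 is a sodium-driven chloride-bicarbonate exchanger of neurons, Slc24a4 is a potassium-dependent sodium-calcium exchanger that extrudes calcium, and Slc25a51 carries NAD into mitochondria.

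Slc44a5 had the largest difference of any solute carrier. With peptides plus APV its log2 signal was 3.30, 3.08 and 3.24. It was 1.81, 1.62 and 1.75 with NMP peptides, 1.50, 1.78 and 1.91 with PK-cleaved peptides, 1.97 and 1.65 in DMSO, and 1.75, 1.69 and 1.42 with bicuculline. The 3 APV libraries lay above the 11 others with a gap of 1.11 log2 units, while the other 4 groups overlapped each other.

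Relative to peptides plus APV, Slc44a5 was 2.79-fold lower with NMP peptides (log2 difference -1.48, SE 0.128, limma adjusted p = 5.3e-05). It was 2.63-fold higher with peptides plus APV than in DMSO (1.39, SE 0.143, adjusted p = 0.00034) and 2.78-fold higher than with PK-cleaved peptides (1.47, SE 0.128, adjusted p = 8.24e-05). These 3 comparisons share the same APV libraries. All 3 calls held in each of the 22 other fits run for them, with differences of -1.54 to -1.41, 1.24 to 1.55 and 1.36 to 1.57. Slc44a5 was the only solute carrier called between peptides plus APV and DMSO, where 0.625% of all genes were called, 0.175% higher and 0.45% lower. In that comparison 13 solute carriers (7.39%) had an unadjusted p under 0.05, beside 11.5% of all genes, and 41 (23.3%) had groups that did not overlap, beside 29.8%. Its relatives differed less between peptides without and with APV: Slc44a1, a choline transporter, differed by -0.01 (95% interval -0.19 to 0.17) and Slc44a2 by -0.14 (-0.32 to 0.04). Of 14 tested genes of choline and phosphatidylcholine metabolism, 0 were called in any of the 8 comparisons, and 1 had an unadjusted p under 0.05 between peptides with and without APV.

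Slc4a8 had log2 signals of 3.88, 3.64 and 3.81 with peptides plus APV and 2.84, 3.09 and 2.95 with NMP peptides. Its values were 2.97 and 3.33 in DMSO, 3.11, 2.89 and 2.76 with bicuculline, and 2.62, 3.26 and 3.09 with PK-cleaved peptides. All 3 APV libraries lay above the 11 others, by at least 0.30. Slc4a8 was lower by 0.82 log2 units without APV (log2 difference -0.82, SE 0.15, limma adjusted p = 0.0148) and higher with APV than with PK-cleaved peptides (0.79, adjusted p = 0.0188). The difference from DMSO, 0.62 (SE 0.168), had an adjusted p of 0.138. Among its relatives, the electrogenic sodium bicarbonate cotransporter Slc4a4 differed by -0.38 between peptides without and with APV, Slc4a10 by -0.18, Slc4a7 by -0.12, Slc4a3 by -0.01 and the anion exchanger Slc4a2 by 0.19. None of these 5 was called.

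Slc24a4 had 1.99, 1.84 and 2.00 with peptides plus APV and 0.92, 1.42 and 1.09 with NMP peptides. It had 1.24 and 1.46 in DMSO, 1.07, 1.11 and 1.07 with bicuculline, and 0.68, 1.32 and 1.22 with PK-cleaved peptides. The APV libraries again lay above the rest, with a gap of 0.38. The differences were -0.80 (SE 0.16, limma adjusted p = 0.0218) for peptides without against with APV, and 0.87 (adjusted p = 0.0161) for peptides plus APV against PK-cleaved peptides. Against DMSO the difference of 0.59 had an adjusted p of 0.198. Its relative Slc24a2, which also extrudes calcium, differed by -0.54 (SE 0.227, adjusted p = 0.278) with a wide spread, from 1.08 to 2.19 over the 14 libraries.

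Slc25a51 moved least. Its log2 signals were 4.84, 4.80 and 4.77 with peptides plus APV and 4.40, 4.40 and 4.55 with NMP peptides. The highest library outside the APV group was DMSO replicate 2 with 4.73, so the gap was 0.04. The difference was -0.35 (SE 0.075, limma adjusted p = 0.0331) against NMP peptides with APV, and 0.30 (adjusted p = 0.0731) for APV against PK-cleaved peptides.

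Peptides plus APV against PK-cleaved peptides called Slc44a5, Slc24a4 and Slc4a8 higher and 0 solute carriers lower, beside 1.39% of all genes (0.607% higher and 0.781% lower). An unadjusted p under 0.05 was found for 26 solute carriers (14.8%), beside 15.6% of all genes, and groups that did not overlap for 35 (19.9%), beside 20.2%. Only Slc44a5 held in every leave-one-out fit. Between peptides with and without APV, the Slc4a8 call was lost in limma fits without NMP peptides replicate 1 (adjusted p = 0.0717), APV replicate 1 (0.0758) or APV replicate 3 (0.0715). The Slc24a4 call was lost without NMP peptides replicate 1 (0.112) or 3 (0.0807) or APV replicate 1 (0.0961), 2 (0.0536) or 3 (0.1). The Slc25a51 call was lost without NMP peptides replicate 1 (0.134) or 2 (0.11), PK-cleaved replicate 3 (0.0516) or APV replicate 1 (0.13), 2 (0.0915) or 3 (0.0971), and was 0.0542 with the replicate block. Against PK-cleaved peptides, Slc4a8 and Slc24a4 were lost without PK-cleaved replicate 1 (0.0758 and 0.0567), APV replicate 1 (0.0908 and 0.0728) or APV replicate 3 (0.0805 and 0.0746). Slc4a8 against DMSO passed without PK-cleaved replicate 1 (0.0486).

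**Figure D3:**
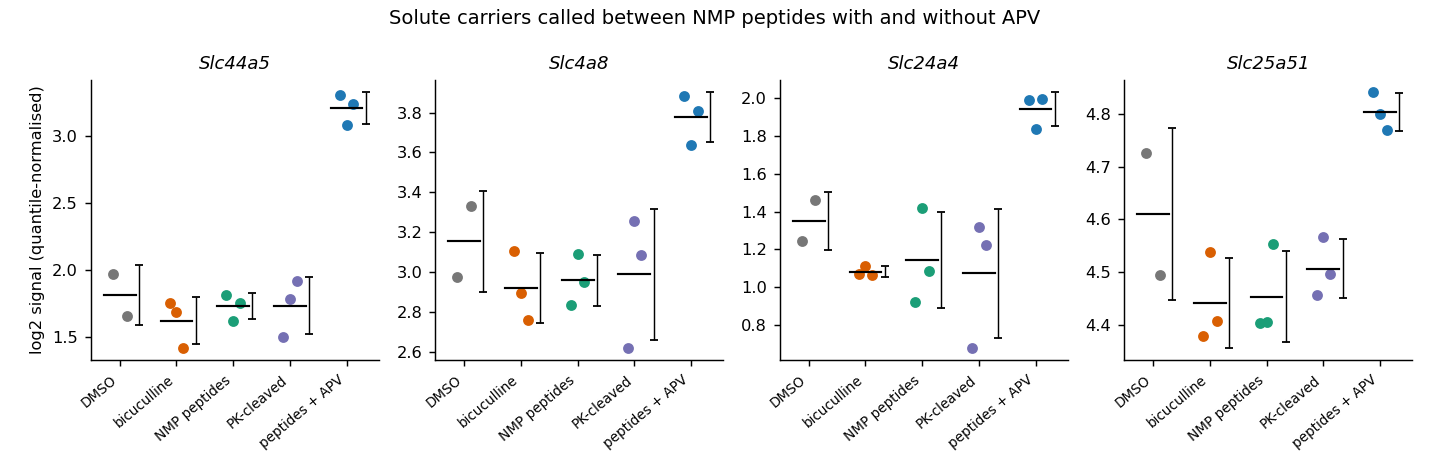
Log2 signal (vertical axis, a separate scale for each gene) of Slc44a5, Slc4a8, Slc24a4 and Slc25a51 in each library of the 5 groups (points); horizontal bars are group means and the error bars beside them 1 SD, with n = 2 for DMSO and n = 3 for the others. The 3 APV libraries lie above the 11 others in all 4 panels, by 1.11 for Slc44a5 and by 0.04 for Slc25a51.

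Several carriers had their lowest values with APV, and none of them passed the test in the fit reported here. Slc12a2, the sodium-potassium-chloride cotransporter that loads cells with chloride, had log2 signals of 2.54, 2.54 and 2.37 with peptides plus APV and 2.79, 2.96 and 2.80 with NMP peptides. These APV libraries lay below the 11 others by 0.09, and the difference of 0.37 (SE 0.086) had a limma adjusted p of 0.054. Slc12a2 was called lower with APV when libraries were weighted by array weights and when a trend with gene span was removed. Slc35a1, the Golgi importer of CMP-sialic acid, also had its APV libraries lowest of all, by 0.06, with a difference of 0.33 (adjusted p = 0.111), and it was called lower with APV with array weights. Slc4a2 was the third such gene, by 0.03. Solute carriers with all APV libraries below every other library were 3 of 176 (1.7%), beside 4.55% of all genes. Those with all APV libraries above were 5 (2.84%), the 4 called genes and Slc35e1, beside 3.45%. Slc12a5, which extrudes chloride in mature neurons, differed by -0.18 between peptides without and with APV (95% interval -0.41 to 0.06).

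**Figure D4:**
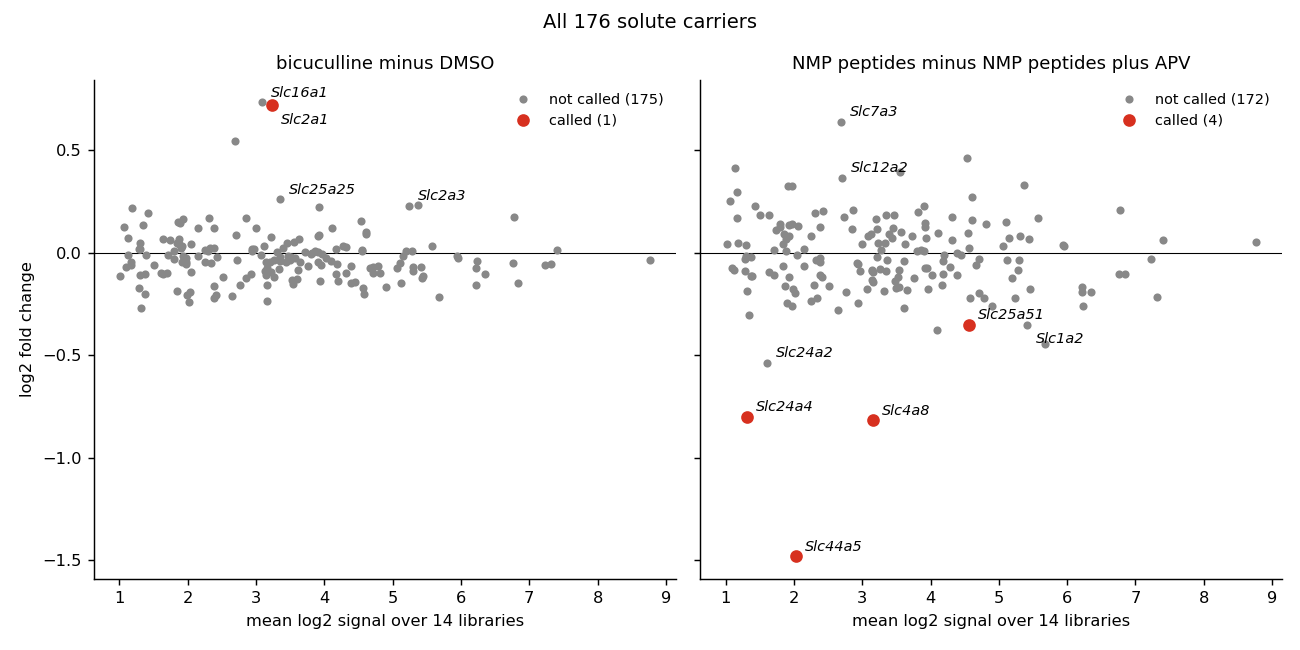
Log2 fold change (vertical axis) against mean log2 signal over 14 libraries (horizontal axis) for all 176 solute carriers, for bicuculline minus DMSO (left) and NMP peptides minus NMP peptides plus APV (right); red points were called at an adjusted p under 0.05 in limma and grey points were not. Slc2a1 is the 1 called gene on the left with 0.72, and Slc44a5 lies lowest on the right with -1.48.

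Amino acid carriers that are known targets of the stress-response factor Atf4 lay on 1 side of 0 without passing the test. This list of 9 carriers, of which 8 are among the 176 and Slc1a5 is not, had a median of 0.33 between peptides without and with APV, beside 0.01 over all genes, and 9 of 9 were above 0. None was called, and 2 of 9 had an unadjusted p under 0.05, beside 15.8% of all genes: the cationic amino acid transporter Slc7a1 (0.46, limma adjusted p = 0.251) and Slc3a2, the heavy chain shared by several amino acid exchangers (0.33, adjusted p = 0.287). Of the 15 regulators and other targets of that response, Atf4 (0.82, adjusted p = 0.0187) and Cebpb (0.90, adjusted p = 0.0435) were called higher without APV, a direction called for 0.883% of all genes.

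The same carriers differed widely between libraries of 1 group, and 5 of the 8 were among the 8 solute carriers with the largest within-group SD. Slc7a3, a cationic amino acid transporter, had the largest within-group SD of the 176 genes, 0.552, and Slc6a9, a glycine transporter, had 0.336. Slc7a3 had log2 signals of 2.35, 3.06 and 1.58 with peptides plus APV, 2.87, 2.95 and 3.09 with NMP peptides, and 3.20 and 1.66 in DMSO. The low values in APV replicate 3 and DMSO replicate 3 recurred in the cystine-glutamate exchanger Slc7a11 and the large neutral amino acid transporter Slc7a5. APV replicate 3 was the lowest of the 14 libraries for 7 of the 8 Atf4-target carriers. Slc7a5 had 6.76, 6.87 and 6.14 with peptides plus APV, 6.59, 6.83 and 6.99 with NMP peptides, and 7.13 and 6.35 in DMSO. The groups overlapped, and the difference between peptides without and with APV was 0.21 (SE 0.203).

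Carriers that mark cell types gave no call between peptides without and with APV. The astrocytic glutamate transporters Slc1a2 and Slc1a3 differed by -0.35 (SE 0.136, limma adjusted p = 0.24) and -0.22 (SE 0.085, adjusted p = 0.244), and the astrocytic GABA transporter Slc6a11 by -0.19 (adjusted p = 0.278). The vesicular carriers Slc17a7 and Slc17a6 differed by -0.26 and -0.25 and the GABA carrier Slc32a1 by 0.15, all uncalled. The linear signal of 9 astrocyte markers summed to 414 to 429 in the APV libraries and 337 to 399 in the other 11, and without the 2 carriers among them to 190 to 199 and 163 to 193. Of the 9 genes, 8 were below 0 between peptides without and with APV and 1, Gfap (0.43), was above. An unadjusted p under 0.05 was found for 4 of them, beside 15.8% of all genes. The linear signal of 6 inhibitory neuron markers summed to 379 to 391 in the APV libraries and 414 to 491 elsewhere. Sst, with a log2 signal of 8.02 to 8.51, makes up most of that sum, and of the 6 genes 4 were above and 2 below 0 between peptides without and with APV. The 6 excitatory neuron markers summed to 280 to 323 in the APV libraries and 232 to 307 elsewhere, with a median difference of -0.25, 5 of 6 below 0 and 3 at an unadjusted p under 0.05, Camk2a furthest with -0.55 (limma adjusted p = 0.157). The 9 oligodendrocyte lineage markers gave 150 to 184 and 127 to 171. No gene of these lists was called in that comparison. Neuron markers summed to 1670 to 2060 in the 14 libraries, while 7 microglial markers gave 0.586 to 1.02 and 7 endothelial and mural markers 1.49 to 2.42, with Cldn5 detected in 2 libraries and Tmem119 in 5. The part of cell composition in the APV differences was not tested, and fewer cells of a type and less RNA per cell cannot be told apart in bulk RNA.

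Gfap, an astrocyte filament gene, was highest in 4 libraries, 1 in each group except the APV group. Its log2 signal was 4.18 in bicuculline replicate 2, 4.15 in NMP peptides replicate 3, 4.13 in DMSO replicate 2 and 3.97 in PK-cleaved replicate 3. Bicuculline replicate 3 came next with 3.47 and is counted below among the 7 others without APV. The remaining libraries had 2.15 to 2.87. The limit between the 4 libraries and the rest is thus not sharp. For the 3 genes called in more than 1 comparison, values in those 4 libraries overlapped the others. Slc44a5 was 1.69 to 1.97 in those 4 libraries and 1.42 to 1.81 in the 7 others without APV, and Slc4a8 was 2.89 to 3.09 and 2.62 to 3.33. Slc24a4 was 1.09 to 1.24 and 0.68 to 1.46. Among other carriers named above, Slc24a2 went with the split. It was 1.08 to 1.27 in those 4 libraries and 1.30 to 1.96 in the 7 others, with no overlap. Slc4a4 was 3.70 to 3.91 and 3.89 to 4.30, and Slc25a51 was 4.50 to 4.73 and 4.38 to 4.57, each with some overlap. In those 4 libraries Slc4a4 leaned to lower values and Slc25a51 to higher ones. What part the state of these libraries had in the APV differences of those genes was not tested. Without the 4 libraries, Slc44a5 kept its calls, and Slc25a51 kept its call between peptides without and with APV. The limma adjusted p rose to 0.278 for Slc2a1 between bicuculline and DMSO (0.70), 0.0892 for Slc4a8 (-0.81) and 0.166 for Slc24a4 (-0.77) between peptides without and with APV. Against PK-cleaved peptides it rose to 0.0917 for Slc4a8 (0.84) and 0.084 for Slc24a4 (0.94).

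In the genome (GRCm38), Slc44a5 lies at chr3:153973436-154271747 and spans 298 kb, Slc24a4 at chr12:102128727-102267133 with 138 kb and Slc4a8 at chr15:100761747-100823971 with 62.2 kb. Slc2a1 lies at chr4:119108745-119137330 with 28.6 kb and Slc25a51 at chr4:45395923-45408917 with 13 kb. Antisense gene models overlap Slc2a1 and Slc24a4 and a model on the other strand overlaps Slc44a5. Since it is not stated whether strand was used in counting, their reads cannot be told apart. Models on the same strand also overlap Slc44a5, Slc2a1 and Slc25a51, and strand would not separate those. The median span of the 176 genes was 29.9 kb, beside 25.1 kb over all genes with a span. Between peptides without and with APV, the 27 solute carriers over 100 kb had a median difference of -0.17, with 8 above and 19 below 0, and the 61 under 20 kb had 0.04. All genes of those spans had medians of -0.06 and 0.06, so the order by span was also seen outside this family. With this trend removed from each library, the 4 genes called between peptides without and with APV stayed called and Slc12a2, lower with APV, was called too. Slc4a8 then also passed against DMSO (0.66, limma adjusted p = 0.042), and Slc25a51 passed against PK-cleaved peptides and in the F test.

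**Figure D5:**
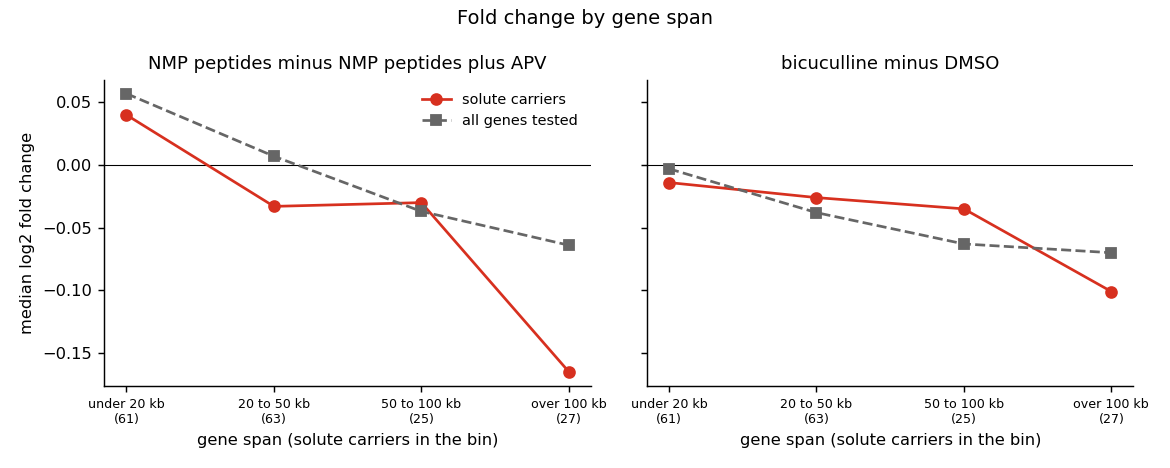
Median log2 fold change (vertical axis) by gene span (horizontal axis, number of solute carriers in parentheses) for solute carriers (red circles) and all genes tested (grey squares), for NMP peptides minus NMP peptides plus APV (left) and bicuculline minus DMSO (right). On the left, solute carriers go from 0.04 under 20 kb to -0.17 over 100 kb, and all genes from 0.06 to -0.06.

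Upstream letters of the genes that moved were read from the RefSeq promoter table of GRCm38.p6, which holds a window for 142 of the 176 genes and not for Slc25a51. A set of 4 short elements was searched on both strands in windows of 300 bases, most of them before the start. The cAMP response element TGACGTCA was in 1.06% of 189 solute carrier windows and 1.79% of all 32851 windows. The AP-1 element TGANTCA was in 4.76% and 7.81%, and the Atf4 composite element TGATGNAA in 2.12% and 3.97%. The hypoxia response core ACGTG was in 27.5% and 19.6%. Of the 4 genes called by the F test, Slc2a1 and Slc24a4 held ACGTG, and the windows of Slc44a5 and Slc4a8 held none of the 4 elements. For the 3 genes that moved together with APV, the 120 bases before the start are shown at chr3:153973316-153973435, chr15:100761627-100761746 and chr12:102128607-102128726, and for Slc2a1 the 30 bases around its match, at chr4:119108697-119108726, all on the plus strand. Capitals mark ACGTG in Slc2a1 and CACGTG, which reads as ACGTG on both strands, in Slc24a4. A GENCODE exon of Slc2a1 begins at position 119108711, within the stretch shown, and the match at 119108709 to 119108713 straddles that start.
Slc44a5: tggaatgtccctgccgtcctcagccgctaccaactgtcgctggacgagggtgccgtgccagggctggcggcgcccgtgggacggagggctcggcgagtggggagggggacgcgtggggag
Slc4a8: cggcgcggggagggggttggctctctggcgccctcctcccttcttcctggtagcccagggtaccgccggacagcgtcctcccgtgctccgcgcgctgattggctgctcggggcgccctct
Slc24a4: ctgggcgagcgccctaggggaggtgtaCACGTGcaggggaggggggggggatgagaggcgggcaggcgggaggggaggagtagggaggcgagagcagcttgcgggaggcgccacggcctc
Slc2a1: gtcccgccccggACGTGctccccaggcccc
The 3 long stretches were 73.3%, 73.3% and 74.2% G or C, in that order. A match of letters describes the window only, and whether any factor binds there was not measured.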

How the data were processed

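RNA was sequenced as paired-end reads of 100 bases from ribosome-depleted libraries, per the labels' protocols. The authors deposited 1 table of log2 signals (a normalised score, not counts). The submitters' processing notes name the build GRCm38.p6, while aligner and counter were not given in the sources. Antilogged values times exon length in kb summed in each library to about the total of per-million values with base 2, and to several times that with base e, so the values were read as log2 per gene length. Every library had the same median, 2.19, and the same maximum, 12.0, as after quantile normalisation, which hides read depth and any shift in total RNA.

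Genes were ranked by mean and the lowest 40% dropped, which left 10877 genes with no missing value and all 176 solute carriers. One mean per group was fitted with limma 3.58.1 (R 4.3.3, variance trend on) to the 14 libraries. In each of 8 comparisons a gene was called where its two-sided p, after Benjamini-Hochberg adjustment over all genes, lay under 0.05. The procedure was tested on simulated data whose noise was drawn independently for each gene and library. Those data lack deviations shared between libraries or genes, so that test says nothing about their effect. The labels call the replicates biological and do not name the replicated unit, so the tests speak of the spread among these libraries. Members, lists and the rule for named genes were chosen with earlier results of these data known. That rule took the called members, the 3 smallest p where fewer than 3 were called, class leaders, a fixed set of carriers with well-known roles and the called genes of 3 pathway lists. Of the genes it took, 2 are not reported here. Relatives of called genes, the other carriers of the Atf4 list and carriers with a group wholly apart were named after their values were seen. Deviations of same-numbered libraries correlated at 0.51, 0.499 and 0.613 between NMP peptides and PK-cleaved peptides. The values were 0.542 and 0.169 between bicuculline and DMSO, and 0.305 and 0.349 between peptides plus APV and DMSO. In the other comparisons they lay between -0.48 and 0.133. The fit reported here took no libraries as pairs in any comparison, so its SE and p values are unpaired throughout. Pairing entered only as a replicate block among the alternative fits. Positions and promoters came from RefSeq, matched by symbol, and overlapping genes from GENCODE. Date-like names in place of 27 symbols were tested and not named.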

Additional observations from a re-analysis of the deposited data

How the results depend on the processing

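The counts of called solute carriers were recomputed with other filters, scalings, library weights and subsets of libraries. A count can stay or move but cannot reverse. Among 25 pairs of a named gene and a comparison, 0 changed sign in these fits. Those pairs were chosen because they were called or had the smallest p. For bicuculline against DMSO the count of 1 became 0 with the replicate block, with only the groups compared and without the 4 libraries highest in Gfap, and was 0 to 1 leaving out each library. For peptides plus APV against DMSO the count of 1 became 0 with the lowest 60% of genes dropped, a fit in which Slc44a5 and Slc24a4 were not tested, 2 with array weights and 2 with the span trend removed (1 to 2 leaving out a library). For peptides without against with APV the count of 4 became 2 with 60% dropped, 2 without the Gfap libraries, 3 with the replicate block, 6 with array weights (Slc12a2 and Slc35a1 gained) and 5 with the span trend removed (Slc12a2 gained), and was 1 to 4 leaving out a library. For bicuculline against NMP peptides the count of 0 became 1, Slc2a1, with 60% dropped and 1 with array weights (0 to 1). For peptides plus APV against PK-cleaved peptides the count of 3 became 1 with 60% dropped, 7 with array weights, 1 with only the groups compared, 1 without the Gfap libraries and 4 with the span trend removed (1 to 4 leaving out a library). The F test count of 4 became 2, 7 and 1 with 60% dropped, array weights and no Gfap libraries, 3 with the replicate block, which lost Slc4a8, and 5 with the span trend removed, which gained Slc25a51 (1 to 5 leaving out a library). The 3 other comparisons gave 0 in every fit, leaving out a library included (0 to 0). A replicate block over NMP peptides and PK-cleaved peptides alone, which takes same-numbered libraries as pairs, left their count at 0. Dropping 60% left 114 of the 176 genes in the test, and the cause of the other moves was not tested. With no filter, centred libraries or no variance trend every count stayed as it was. Settings for counts and pseudocounts were not run, since the values are log2. The Gfap and span settings and the block over NMP peptides and PK-cleaved peptides alone were chosen after seeing the data. In leave-one-out fits a group of 1 library was assumed to vary like the others. Depth is unknown, so no counting error can be given.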
